A study of Mus musculus with 8 samples.

Results

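The genes described here encode the machinery of cell division: the cyclins and kinases that start mitosis, the kinetochore that ties chromosomes to the spindle, the checkpoint that watches it, and the kinesins and spindle proteins that move and separate the chromosomes. The set was a list of 48 gene symbols, matched by symbol and chosen with earlier results of these data known. Of these, 47 were measured among the 19938 genes of the arrays, and 46 of the 47 had 1 probe set. Ccnb1, which encodes cyclin B1, was not analysed here.

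RNA was measured on 8 Affymetrix arrays, 1 for each independent preparation of sorted bone marrow cells from C57BL/6J mice. KLS cells express c-Kit and Sca-1 but no lineage markers, and the blood stem cells and the earliest progenitors are among them. MEP cells are committed to the erythroid and megakaryocyte lineages. Each cell type was sorted from mice labelled ∆Hmga2, called TG in the sample titles, and from wild-type (WT) mice, with 2 arrays in each of the 4 groups. A preparation pooled 4 or 6 mice, so each array is the average of several animals, and the spread between 2 arrays is that between pools. For the altered Hmga2, the sources used here name neither a promoter nor the number of founder lines, and they give no age for the mice.

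Mitosis begins when cyclin-dependent kinase Cdk1, bound to its cyclins and freed of inhibitory phosphate by Cdc25 phosphatases, reaches full activity. Kinetochores then capture spindle microtubules, and the checkpoint holds back the anaphase-promoting complex until every chromosome is attached. Most of these genes are transcribed late in the cell cycle and are silent in resting cells, so in bone marrow their messages are widely used as a sign of cycling progenitors.

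Late cell cycle genes often carry a CHR element (cell cycle genes homology region), the site at which MuvB complexes act, together with CCAAT boxes, which NF-Y binds. RefSeq promoters of GRCm38.p6, running from 250 bases before to 50 bases after the start, were at hand for 40 of the 48 genes. The CHR was searched as TTTGAA and as the variant form TTCGAA, and the box by the letters of its name, CCAAT. Both strands were read. Each motif was counted on its own, also where neighbouring matches shared a letter. A CHR match was found in 29 of the 40 promoters (72.5%), against 16.8% of the 15614 measured genes with a promoter entry and 19.2% of all 32851 promoters. A CCAAT match was found in 30 (75%), against 38.2% of measured genes and 37.4% of all promoters. Both motifs stood in 25 (62.5%), against 6.84% of measured genes and 7.52% of all promoters. Among DNA replication genes the CCAAT share was 64.1% and the CHR share 15.4%. The mitosis and replication genes thus lay farther apart in the CHR share than in the CCAAT share. Of 72 mitosis genes outside the set, from a list described below, 55.6% held a CHR match, 63.9% a CCAAT match and 40.3% both. High shares of these motifs are thus not particular to the set. These are descriptions of letters, not of binding.

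The promoters shown are those of the gene that passed the test between cell types (Kif18a), of the next ones by p-value that had an entry (Kif4, Bub1 and Top2a), of the kinase that drives mitosis (Cdk1), and of the gene with the smallest difference between cell types (Ndc80). Each runs 5′ to 3′ along the gene, with CHR and CCAAT matches in capitals. Kif18a lies at chr2:109280488-109280787 on the plus strand, Kif4 at chrX:100625815-100626114 on the plus strand, and Bub1 at chr2:127831810-127832109 on the minus strand. Top2a lies at chr11:99024140-99024439, Cdk1 at chr10:69352863-69353162 and Ndc80 at chr17:71526808-71527107, all on the minus strand.
Kif18a: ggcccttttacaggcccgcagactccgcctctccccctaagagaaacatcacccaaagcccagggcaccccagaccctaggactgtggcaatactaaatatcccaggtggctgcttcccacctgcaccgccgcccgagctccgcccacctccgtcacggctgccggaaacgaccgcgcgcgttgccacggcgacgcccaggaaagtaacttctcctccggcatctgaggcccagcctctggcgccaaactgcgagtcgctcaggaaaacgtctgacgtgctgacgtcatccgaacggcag
Kif4: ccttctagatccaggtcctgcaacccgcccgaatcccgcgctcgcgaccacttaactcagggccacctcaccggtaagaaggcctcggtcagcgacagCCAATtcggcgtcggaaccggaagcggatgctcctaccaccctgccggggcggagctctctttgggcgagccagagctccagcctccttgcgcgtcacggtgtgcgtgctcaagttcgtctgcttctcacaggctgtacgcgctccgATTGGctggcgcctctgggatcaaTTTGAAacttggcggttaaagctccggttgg
Bub1: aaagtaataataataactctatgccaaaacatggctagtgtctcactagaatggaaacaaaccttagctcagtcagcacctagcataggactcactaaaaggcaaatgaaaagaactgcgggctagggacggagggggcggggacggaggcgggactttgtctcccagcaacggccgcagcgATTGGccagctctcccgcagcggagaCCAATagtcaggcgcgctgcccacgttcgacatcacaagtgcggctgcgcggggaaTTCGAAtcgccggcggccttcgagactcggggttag
Top2a: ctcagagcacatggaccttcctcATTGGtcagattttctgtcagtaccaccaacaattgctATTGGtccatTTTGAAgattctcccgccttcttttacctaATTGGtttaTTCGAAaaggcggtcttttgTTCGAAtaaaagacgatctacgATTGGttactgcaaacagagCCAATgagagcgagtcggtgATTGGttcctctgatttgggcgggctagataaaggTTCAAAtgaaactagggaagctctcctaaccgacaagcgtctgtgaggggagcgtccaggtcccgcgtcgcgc
Cdk1: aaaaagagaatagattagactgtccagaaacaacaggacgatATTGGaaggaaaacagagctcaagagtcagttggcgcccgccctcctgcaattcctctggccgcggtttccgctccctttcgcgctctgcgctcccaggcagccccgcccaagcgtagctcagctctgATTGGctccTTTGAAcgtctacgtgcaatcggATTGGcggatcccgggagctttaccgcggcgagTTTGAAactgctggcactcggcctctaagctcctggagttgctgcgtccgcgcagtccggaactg
Ndc80: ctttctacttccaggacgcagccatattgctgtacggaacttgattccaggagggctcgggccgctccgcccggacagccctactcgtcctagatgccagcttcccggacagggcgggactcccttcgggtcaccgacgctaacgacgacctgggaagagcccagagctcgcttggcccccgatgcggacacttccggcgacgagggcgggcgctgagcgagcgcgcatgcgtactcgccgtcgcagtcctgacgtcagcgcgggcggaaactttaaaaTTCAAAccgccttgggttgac
Kif18a held neither motif in this window, as did Mad2l1, Plk4, Nusap1, Birc5 and Nuf2. Top2a held 4 CHR and 6 CCAAT matches, Cdk1 held 2 and 3, Bub1 and Kif4 held 1 and 2 each, and Ndc80 held 1 CHR match and no CCAAT match.

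All values are log2 levels after quantile normalization, and levels are compared only within a gene. Deposited array medians lay between 6.34 and 6.45, and the correlation of replicates over all genes lay between 0.981 and 0.988. Hmga2 had 1 probe set, and the sources used here do not say whether the altered gene keeps its target; it read 6.85 and 7.12 on WT KLS, 7.35 and 7.11 on TG KLS, 6.70 and 6.74 on WT MEP, and 6.95 and 6.99 on TG MEP arrays. The mean level of 11 stem and progenitor markers was 7.64 to 7.97 on KLS and 6.45 to 7.13 on MEP arrays, and that of 12 erythroid and MEP markers 9.24 to 9.60 on KLS and 9.73 to 10.01 on MEP arrays. The mean of the 4 measured megakaryocyte markers went against the megakaryocyte part of the MEP label, at 6.79 to 7.12 on KLS and 6.37 to 6.74 on MEP arrays. The markers were not alike. Pf4, platelet factor 4, was at 1.57 in KLS minus MEP, with an adjusted p of 0.0686 in limma, and Itga2b was also higher in KLS cells. Gp9 overlapped between the cell types. Vwf leaned the other way, with 6.94, 6.80, 6.79 and 6.89 on KLS and 6.78, 7.21, 7.15 and 6.93 on MEP arrays. Ly6a, the gene of Sca-1, was not analysed here. WT MEP 1 stood apart: its mean over 7 B lymphocyte markers was 9.25, against 7.15 to 7.24 on the other MEP arrays, and over 14 granulocyte and monocyte markers 9.24, against 7.84 to 8.57. Results are therefore also given without that array. WT MEP 2 also lay above the TG MEP arrays in some marker means. For granulocytes and monocytes it was at 8.57 against 7.84 and 8.01, and for erythroid and MEP markers at 10.01 against 9.73 and 9.79. For the stem and progenitor markers it lay between them. The part of such marker differences in the genotype results was not tested.

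**Figure D1:**
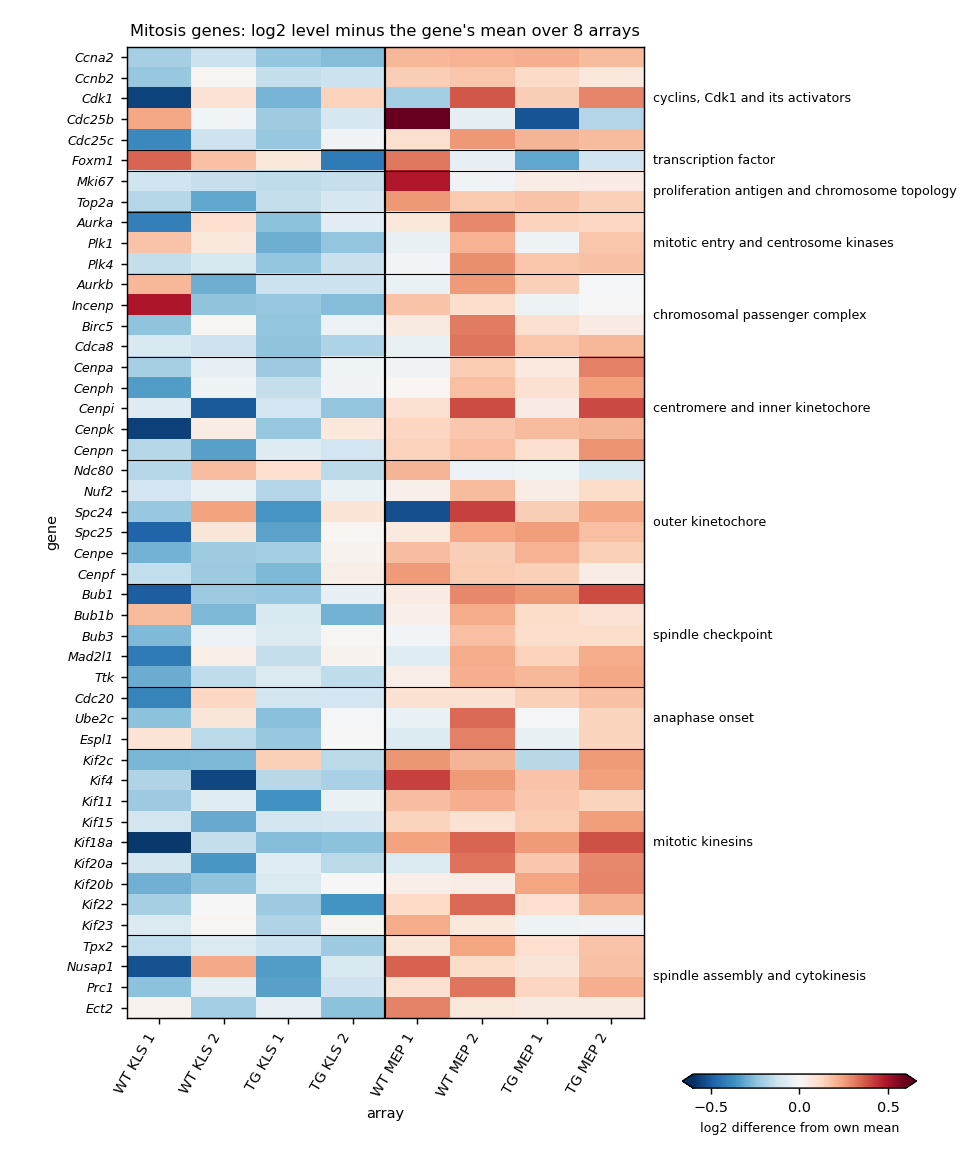
Log2 level of each of the 47 measured mitosis and kinetochore genes (rows, grouped by role) on each of the 8 arrays (columns), as the difference from the gene's own mean over the arrays; the colour scale is clipped at both ends. The KLS columns are mostly below and the MEP columns mostly above the mean, with Foxm1, Cdc25b, Incenp and Ndc80 among the rows that break the pattern.

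Between cell types, the mitosis genes as a group read lower in KLS than in MEP cells, by a small amount each. The difference, averaged over both genotypes, was below 0 for 46 of the 47 genes, against 46.5% of all genes. Its median was -0.30, against 0.01 over all genes, and it ran from -0.61 for Kif18a to 0.08 for Foxm1. In limma, 1 of the 47 genes, Kif18a, passed an adjusted p of 0.05 (Benjamini-Hochberg over all genes), where 0.396% of all genes were called lower and 1.6% in either direction. At an unadjusted p under 0.05, 25 were lower and 0 higher, against 6.24% and 8.02% of all genes. All 4 KLS arrays lay below all 4 MEP arrays for 27 of the genes, against 4.63% of all genes. None of the 47 genes was among the dimmest 30% of all genes, which these shares include. In bulk RNA such as this, fewer dividing cells and less message per dividing cell cannot be told apart. Markers of other lineages also differed between the cell types: all 14 granulocyte and monocyte markers were above 0 in KLS minus MEP, with array means of 9.68 to 10.20 in KLS and 7.84 to 9.24 in MEP cells, and so were all 7 of mast cells, basophils and eosinophils, with 7.02 to 7.52 and 6.05 to 6.83. Their part in the result was not tested.

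The size of the differences was bounded. For all 47 genes the 95% interval lay within 2 fold, and for 31 within 1.5 fold. Without WT MEP 1 the median was -0.32, with 44 of 47 below 0 and 25 at an unadjusted p under 0.05. Leaving out each array in turn gave medians from -0.32 to -0.25, with 44 to 47 genes below 0 and 19 to 28 at that p. Over arrays, the median distance of the genes from their own mean was -0.20 and -0.09 on WT KLS, -0.20 and -0.10 on TG KLS, 0.09 and 0.21 on WT MEP, and 0.13 and 0.18 on TG MEP. WT KLS 1 held the lowest reading for 19 of the genes and WT MEP 2 the highest for 21.

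**Figure D2:**
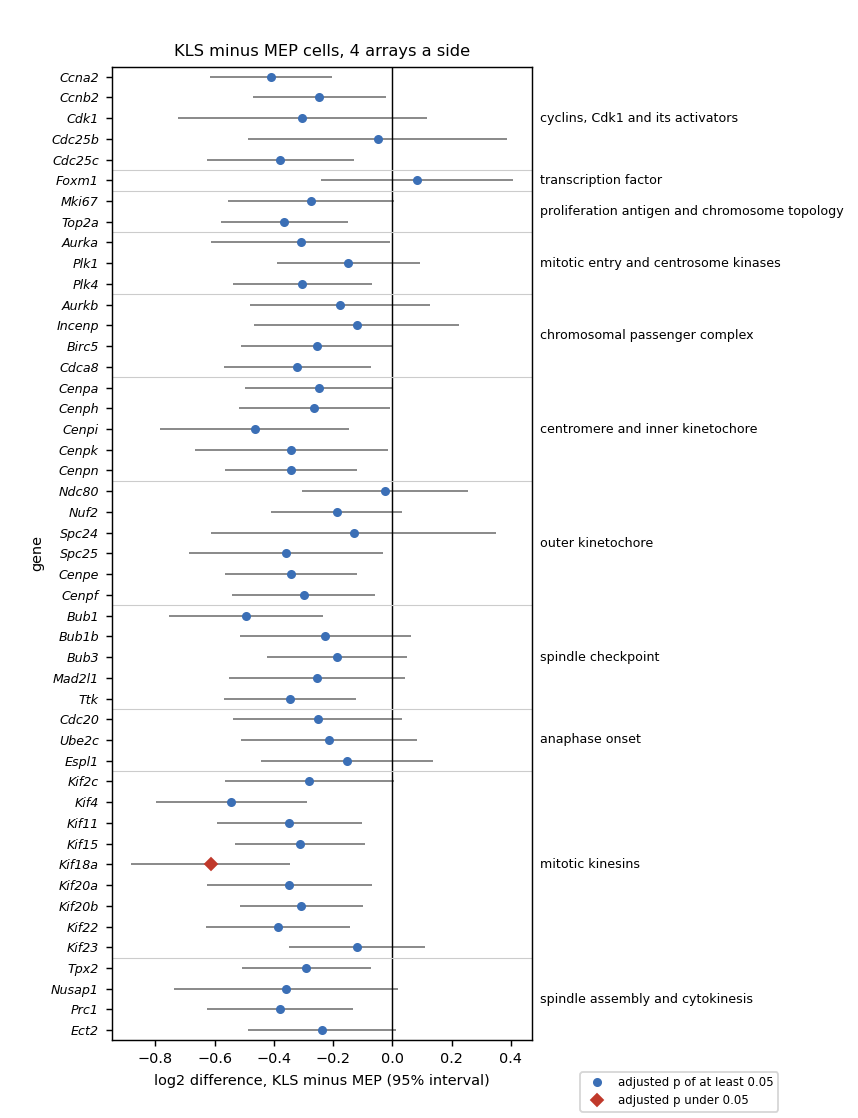
Log2 difference of KLS minus MEP cells for each of the 47 genes (points) with the 95% interval from limma (bars), grouped by role; the vertical line marks no difference. Points lie left of the line except Foxm1 at 0.08, and the diamond marks Kif18a at -0.61, the gene with an adjusted p under 0.05.

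In the sentences that follow, the values of a gene on the arrays of a cell type come in the order WT 1, WT 2, TG 1, TG 2, and a difference is KLS minus MEP ± SE from limma. The mitotic kinesins, motor proteins that walk on or take apart spindle microtubules, had the lowest median of the roles with more than 1 gene, -0.35. All 9 were below 0 and 7 had an unadjusted p under 0.05. Kif18a (Entrez 228421), which dampens chromosome movements at the metaphase plate, read 7.70, 8.14, 8.02 and 8.03 in KLS and 8.52, 8.63, 8.54 and 8.66 in MEP cells. The groups did not overlap, and the highest KLS array was WT KLS 2. The difference was -0.61 ± 0.12, or 1.53 fold, with an adjusted p of 0.0460 in limma. The call was close to its threshold: it ended without WT KLS 1, without either TG KLS array, without WT MEP 2 and without either TG MEP array, with adjusted p from 0.0971 to 0.164, and with median centring, at 0.0595.

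Kif4, the chromokinesin that organises the central spindle, read 8.73, 8.36, 8.74 and 8.72 in KLS and 9.32, 9.16, 9.08 and 9.16 in MEP cells. WT KLS 2 was the lowest of these, and the groups did not overlap. Its difference was -0.54 ± 0.11 and missed the threshold with an adjusted p of 0.0514 in limma. Kif20b, a kinesin of cytokinesis, read 9.56, 9.61, 9.77 and 9.85 in KLS and 9.89, 9.90, 10.09 and 10.15 in MEP cells, a difference of -0.31 ± 0.09. In both cell types the TG arrays were the higher ones. Kif22, Kif11, Kif20a, Kif15, Kif2c and Kif23 ran from -0.39 to -0.12, with Kif23 nearest to 0.

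Of the cyclins, Cdk1 and its activators, all 5 measured genes were below 0, with a median of -0.30. Ccna2, cyclin A2, read 9.92, 9.99, 9.89 and 9.86 in KLS and 10.32, 10.33, 10.34 and 10.31 in MEP cells. The 4 MEP arrays were almost level, and every KLS array lay below them. The difference was -0.41 ± 0.09, with an adjusted p of 0.0645 in limma. Cdc25c, a phosphatase that activates Cdk1 at mitotic entry, differed by -0.38 ± 0.11 and Ccnb2, cyclin B2, by -0.25 ± 0.10. Cdk1 itself, the kinase that carries cells into mitosis, read 9.51, 10.15, 9.79 and 10.20 in KLS and 9.86, 10.44, 10.21 and 10.35 in MEP cells. The cell types overlapped, because WT MEP 1 lay below 2 of the KLS arrays, and the difference of -0.30 ± 0.19 had an unadjusted p of 0.137 in limma. Cdc25b, another activator of Cdk1, differed by -0.05 ± 0.19, with MEP arrays that ran from 6.61 to 7.98. That direction depended on single arrays: the difference was 0.18 without WT MEP 1, -0.28 without WT MEP 2 and 0.012 without WT KLS 2.

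Foxm1, the transcription factor that drives many of these genes late in the cycle, was the 1 gene above 0. It read 7.87, 7.69, 7.58 and 7.10 in KLS and 7.83, 7.47, 7.21 and 7.40 in MEP cells. The ranges overlapped fully, and the difference was 0.08 ± 0.14, with a 95% interval from -0.24 to 0.41; with WT MEP 1 left out it was 0.17, and with WT MEP 2 left out -0.0079. Top2a, the topoisomerase that untangles sister chromatids, read 11.17, 11.03, 11.20 and 11.24 in KLS and 11.60, 11.50, 11.52 and 11.49 in MEP cells. The groups did not overlap, and the difference of -0.36 ± 0.09 had an adjusted p of 0.101 in limma. Mki67, the antigen used to score dividing cells, read 10.70, 10.68, 10.66 and 10.68 in KLS and 11.30, 10.79, 10.86 and 10.87 in MEP cells. Every KLS array lay below every MEP array, but the highest reading was that of WT MEP 1, the array that stood apart, and the difference of -0.28 ± 0.12 had an unadjusted p of 0.0535 in limma. Leaving out WT MEP 1 gave -0.15, and leaving out WT MEP 2 gave -0.40.

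Among the kinases of mitotic entry and the centrosome, Plk4, which starts centriole duplication, read 9.51, 9.56, 9.42 and 9.52 in KLS and 9.64, 9.93, 9.82 and 9.83 in MEP cells, a difference of -0.30 ± 0.10 without overlap. Aurka, which matures the spindle poles, differed by -0.31 ± 0.13. Plk1, which acts from mitotic entry to cytokinesis, differed by -0.15 ± 0.11, or -0.085 without WT MEP 2, and its cell types overlapped. The chromosomal passenger complex corrects faulty attachments and had a median of -0.21 over its 4 genes. Cdca8, its borealin subunit, read 9.01, 8.98, 8.86 and 8.92 in KLS and 9.06, 9.42, 9.27 and 9.30 in MEP cells, a difference of -0.32 ± 0.11. Every MEP array lay above every KLS array, with WT MEP 1 the nearest to them. Birc5, survivin, differed by -0.25 ± 0.11, the kinase Aurkb by -0.18 ± 0.13 and the scaffold Incenp by -0.12 ± 0.15. For Incenp the direction rested on WT KLS: the difference was -0.30 without WT KLS 1 and 0.062 without WT KLS 2.

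The kinetochore has an inner side, next to the centromere, and an outer side that faces the spindle. All 5 genes of the centromere and inner kinetochore were below 0, with a median of -0.34, and 4 had an unadjusted p under 0.05. Cenpn, which recognises the centromeric nucleosome, read 8.18, 8.02, 8.27 and 8.23 in KLS and 8.48, 8.53, 8.44 and 8.61 in MEP cells, a difference of -0.34 ± 0.10 without overlap. Cenpa, the histone variant of that nucleosome, read 9.47, 9.62, 9.46 and 9.65 in KLS and 9.65, 9.83, 9.73 and 9.97 in MEP cells, a difference of -0.25 ± 0.11 with an unadjusted p of 0.0527. Cenpi, Cenpk and Cenph, of the network built on it, differed by -0.46 ± 0.14, -0.34 ± 0.14 and -0.26 ± 0.11. All 5 genes had KLS arrays below all MEP arrays, although by the second decimal WT MEP 1 and TG KLS 2 meet for Cenpa.

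In the outer kinetochore, which grips microtubules, the median over 6 genes was -0.24 and 3 had an unadjusted p under 0.05. Cenpe, a kinesin that carries chromosomes to the plate, read 9.49, 9.56, 9.57 and 9.79 in KLS and 9.96, 9.92, 9.98 and 9.91 in MEP cells, a difference of -0.34 ± 0.10. All KLS arrays were below all MEP arrays. The 4 subunits of the NDC80 complex covered a wide range of values. Spc25 differed by -0.36 ± 0.14 and Nuf2 by -0.19 ± 0.10. Ndc80, by contrast, read 9.30, 9.65, 9.57 and 9.30 in KLS and 9.67, 9.43, 9.44 and 9.38 in MEP cells, a difference of -0.02 ± 0.12 with an interval from -0.31 to 0.26. Spc24 read 8.67, 9.14, 8.54 and 8.98 in KLS and 8.37, 9.31, 9.05 and 9.13 in MEP cells, and its lowest reading was WT MEP 1. Its difference was -0.13 ± 0.21, but -0.37 with WT MEP 1 left out and 0.10 with WT MEP 2 left out. The differences between subunits were not tested.

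The spindle checkpoint genes had a median of -0.25, and all 5 were below 0. Bub1, a kinase that recruits the checkpoint to kinetochores, read 9.08, 9.36, 9.35 and 9.53 in KLS and 9.63, 9.87, 9.84 and 9.97 in MEP cells. The groups did not overlap, and the difference of -0.49 ± 0.11 had an adjusted p of 0.0735 in limma. Ttk, the kinase that triggers checkpoint assembly, differed by -0.35 ± 0.10. Mad2l1, which blocks the anaphase activator, differed by -0.25 ± 0.13, Bub1b by -0.23 ± 0.13 and Bub3 by -0.19 ± 0.10, and each of these had overlapping cell types.

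The genes of anaphase onset were below 0 in all 3 cases, with none at an unadjusted p under 0.05. Cdc20, the activator that the checkpoint restrains, read 8.50, 9.02, 8.79 and 8.78 in KLS and 8.99, 8.99, 9.04 and 9.08 in MEP cells, a difference of -0.25 ± 0.13. Only WT KLS 2 reached the MEP range, and the difference was -0.38 without it and -0.12 without WT KLS 1. Ube2c, the ubiquitin-conjugating enzyme of the anaphase-promoting complex, read 8.05, 8.37, 8.04 and 8.29 in KLS and 8.25, 8.63, 8.29 and 8.42 in MEP cells, a difference of -0.21 ± 0.13. Espl1, separase, which cuts the cohesin ring, read 7.14, 6.90, 6.83 and 7.06 in KLS and 6.98, 7.36, 7.02 and 7.20 in MEP cells, a difference of -0.15 ± 0.13. Both overlapped between cell types. Without WT MEP 2 the differences were -0.12 for Ube2c and -0.055 for Espl1, and without WT MEP 1 they were -0.31 and -0.25.

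Spindle assembly and cytokinesis had a median of -0.32 over 4 genes. Prc1, which bundles the central spindle, read 8.92, 9.11, 8.84 and 9.04 in KLS and 9.26, 9.49, 9.30 and 9.39 in MEP cells, a difference of -0.38 ± 0.11 without overlap. Ect2, which activates RhoA for the cleavage furrow, read 8.79, 8.57, 8.72 and 8.52 in KLS and 9.07, 8.84, 8.82 and 8.83 in MEP cells, a difference of -0.24 ± 0.11. WT MEP 1 was its highest array, and the difference was -0.18 without it. Tpx2, a spindle assembly factor that activates Aurka, differed by -0.29 ± 0.10. Nusap1, which stabilises spindle microtubules, differed by -0.36 ± 0.17, with WT KLS arrays at 8.70 and 9.45.

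Within each genotype alone, most genes again read lower on the KLS side. In WT mice, 44 of the 47 genes were below 0 (44.8% of all genes), with a median of -0.31, and 16 had an unadjusted p under 0.05, all lower, against 4.72% of all genes. In TG mice, 44 were below 0 (50.4% of all genes), with a median of -0.28, and 11 had such a p, all lower, against 2.92% of all genes. None of the 47 passed the adjusted threshold in limma in either genotype, where 0.00502% and 0.135% of all genes were called. Both KLS arrays lay below both MEP arrays for 31 genes in WT (16.0% of all genes) and 40 in TG (20.7% of all genes). The difference was below 0 in both genotypes for 42 of the 47, against 27.1% of all genes. The differences in WT and in TG come from separate arrays. All arrays were normalized together, however, and the p-values of both genotypes use a shared estimate of the spread of each gene.

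Kif4 had the smallest p in WT, with -0.70 ± 0.16 there and -0.39 ± 0.16 in TG. Ccna2 had the smallest p in TG, with -0.45 ± 0.13 there and -0.37 ± 0.13 in WT. Kif18a was at -0.66 ± 0.17 in WT and -0.57 ± 0.17 in TG. The genes not below 0 in both were Foxm1 (0.13 in WT, 0.04 in TG), Plk1 (0.04 and -0.33), Spc24 (0.07 and -0.33), Cdc25b (-0.29 and 0.19) and Ndc80 (-0.08 and 0.03). Without WT MEP 1 the median in WT was -0.37. The size of the WT median depended on the scaling: it was -0.43 with the values as deposited and -0.49 with median centring, and in TG -0.27 and -0.26.

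**Figure D3:**
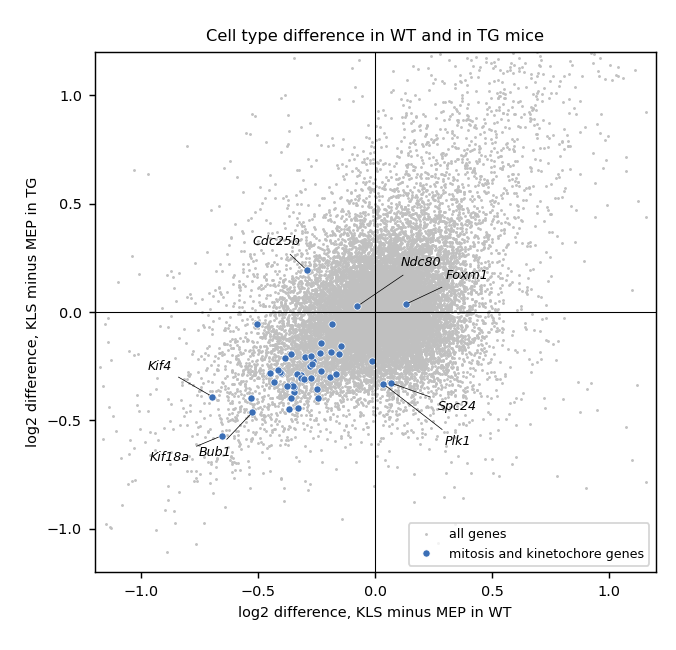
Log2 difference of KLS minus MEP cells in WT mice (horizontal axis) and in TG mice (vertical axis), for all genes (grey) and the 47 mitosis and kinetochore genes (blue); the axes end at 1.2 in both directions, so all-gene points beyond are not drawn. Of the blue points, 42 lie below 0 on both axes, with Kif4, Kif18a and Bub1 farthest out and Foxm1, Cdc25b, Ndc80, Plk1 and Spc24 outside that area.

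The wider machinery of division was read from further lists. Of 84 further measured mitosis genes (condensins, further centromere proteins, spindle and centrosome regulators), 71 were below 0 in KLS minus MEP (46.5% of all genes), with a median of -0.21. Of these, 5 passed in limma, all lower: Oip5, a loader of centromeric histone (-0.66 ± 0.12, adjusted p = 0.0440), the centromere protein gene Cenpl (-0.66 ± 0.13, 0.0487), Mastl, a kinase that protects mitotic phosphorylation (-0.57 ± 0.10, 0.0362), the spindle pole gene Aspm (-0.57 ± 0.10, 0.0362) and the condensin subunit Ncapg (-0.53 ± 0.09, 0.0362). Of all genes, 0.396% were called lower. At an unadjusted p under 0.05, 38 were lower and 1 higher, against 6.24% and 8.02% of all genes. The 1 higher was Cep55, a scaffold of abscission, chosen for mention after its values were seen, at 0.86 ± 0.30, with 7.46, 7.12, 7.86 and 6.91 in KLS and 7.52, 6.17, 5.95 and 6.29 in MEP cells. Its adjusted p was 0.224 in limma, and WT MEP 1 was its 1 MEP array in the KLS range.

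Of 48 DNA replication genes, which act in the phase before mitosis, 44 were below 0 (46.5% of all genes), with a median of -0.23. An unadjusted p under 0.05 was found for 19 (6.24% of all genes lower and 8.02% higher), and 1 was called (1.6% of all genes in either direction). That gene was Orc1, the largest subunit of the origin recognition complex, at -0.62 ± 0.11 with an adjusted p of 0.0362 in limma. A list of 18 genes of quiescence and of restraint on mitosis was evenly split, with 9 below 0 and a median of -0.02. Its called gene was Cdkn2c, an inhibitor of the G1 kinases Cdk4 and Cdk6, at -0.80 ± 0.15 with an adjusted p of 0.0458 in limma. Like that of Kif18a, the calls in these further lists lay near the threshold, with adjusted p from 0.0362 to 0.0487 in limma. Calls over all genes fell from 319 to 123 with median centring, and which of these genes remained under other settings is not given here.

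Between genotypes, no mitosis gene was called, and the values lay on both sides of 0. In limma, 0 of the 47 genes and 0 of all genes (0.0%) passed in any of 4 comparisons: within KLS cells, within MEP cells, over both, and the interaction. At an unadjusted p under 0.05, the counts of members were 1 in KLS cells (2.51% of all genes), 1 in MEP cells (3.71%), 3 over both (3.26%) and 0 in the interaction (2.27%). The median of TG minus WT was -0.02 in KLS cells, with 22 genes above and 25 below 0 (54.2% of all genes), and -0.02 in MEP cells, with 20 above and 27 below (52.0%). These signs depended on the scaling: with the values as deposited and with median centring, 10 and 8 genes were below 0 in KLS cells (medians 0.05 and 0.08), and 36 and 41 in MEP cells (medians -0.10 and -0.13). The shares of all genes under those scalings are not given here, so a shift of every gene is not set apart from one of these genes. With quantile normalization, the median over both cell types was -0.02, with 25 below 0 (54.0% of all genes), and 44 of the 47 intervals lay within 1.5 fold.

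Arrays of the genotypes did not overlap in KLS cells for 7 genes with TG lower (17.2% of all genes) and 7 with TG higher (11.7%), and in MEP cells for 9 with TG lower (17.2%) and 4 with TG higher (13.0%). These shares are near those of all genes. TG lay below WT on every array in both cell types for Cdc25b and Foxm1 (2.89% of all genes), and above for Kif15 and Kif20b (2.08%).

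Cdc25b read 7.36, 7.11, 6.92 and 7.03 in KLS and 7.98, 7.07, 6.61 and 6.95 in MEP cells. Both TG arrays were below both WT arrays in each cell type, but most of the MEP difference sat in WT MEP 1. TG minus WT was -0.26 ± 0.27 in KLS cells, -0.75 ± 0.27 in MEP cells and -0.50 ± 0.19 over both (unadjusted p = 0.0281 in limma). In MEP cells it was -0.29 without WT MEP 1, whose B lymphocyte and granulocyte markers were high, and their part in the result was not tested. Without WT MEP 2 it was -1.20, with an adjusted p of 0.0600 in limma.

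Foxm1, with the values given above, was at -0.44 ± 0.20 in KLS cells, -0.35 ± 0.20 in MEP cells and -0.40 ± 0.14 over both (unadjusted p = 0.0222 in limma). Over both it was -0.30 without WT MEP 1; in MEP cells leaving out that array gave -0.17, and leaving out WT MEP 2 gave -0.53. In KLS cells TG KLS 2 was well below the other 3 arrays, and in MEP cells TG MEP 2 and WT MEP 2 lay close together, at 7.40 and 7.47. Kif20b was at 0.22 ± 0.09 over both (unadjusted p = 0.0378), with nearly the same value in each cell type.

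Plk1 read 8.65, 8.54, 8.19 and 8.24 in KLS and 8.43, 8.69, 8.45 and 8.64 in MEP cells. In KLS cells both TG arrays were below both WT arrays, and in MEP cells the genotypes overlapped. TG minus WT was -0.38 ± 0.15 in KLS cells (unadjusted p = 0.0331 in limma) and -0.01 ± 0.15 in MEP cells, and the difference between these had an unadjusted p of 0.119. Incenp read 9.10, 8.37, 8.39 and 8.35 in KLS and 8.78, 8.72, 8.58 and 8.61 in MEP cells. Its value in KLS cells, -0.36 ± 0.22, rested on WT KLS 1: it was -0.73 without WT KLS 2, and without WT KLS 1 the remaining WT array and the TG arrays lay between 8.35 and 8.39.

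The interaction asks whether the genotype difference in KLS cells departs from that in MEP cells. Its median was 0.03 over the 47 genes with 17 below 0 (49.4% of all genes), and it ran from -0.39 for Spc24 to 0.48 for Cdc25b. Kif2c, a kinesin that takes microtubules apart, had the smallest p of the set, with an interaction of 0.45 ± 0.25 and an unadjusted p of 0.106 in limma. With 2 arrays in a group the intervals were wide: 17 of the 47 lay within 1.5 fold, and 44 within 2 fold. The median was 0.18 with the values as deposited and 0.23 with median centring, with 3 and 2 of the genes below 0. The shares of all genes under these scalings are not given here either.

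**Figure D4:**
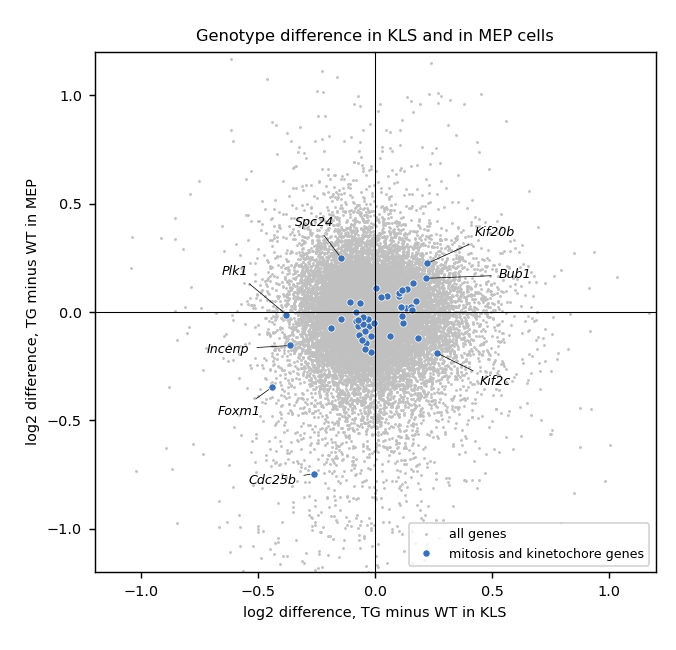
Log2 difference of TG minus WT in KLS cells (horizontal axis) and in MEP cells (vertical axis), for all genes (grey) and the 47 mitosis and kinetochore genes (blue); the axes end at 1.2 in both directions, so all-gene points beyond are not drawn. The blue points crowd around 0, with Cdc25b at -0.75 in MEP cells and Foxm1 at -0.44 in KLS cells the farthest from it.

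In the wider lists, 0 of 84 further mitosis genes, 0 of 48 DNA replication genes and 0 of 18 genes of quiescence passed between genotypes in limma. Their counts at an unadjusted p under 0.05 over both cell types were 1 lower and 1 higher, 1 lower, and 2 lower, against 3.26% of all genes in either direction. The smallest p values there belonged to Cenpq, an inner kinetochore gene, at 0.43 ± 0.15, to the activating E2F gene E2f2 at -0.37 ± 0.13, and to Btg2, an antiproliferative gene, at -1.13 ± 0.34. Btg2 had the lowest p of these, 0.0084 in limma, and an adjusted p of 0.999. Its TG minus WT was -0.69 ± 0.47 in KLS and -1.58 ± 0.47 in MEP cells. On MEP arrays it read 9.85, 8.17, 6.98 and 7.89, highest on WT MEP 1, the array that stood apart. Cenpq read 7.30, 7.97, 8.25 and 8.28 on KLS arrays, lowest on WT KLS 1. The values of these genes without single arrays are not given here.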

How the data were processed

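The authors deposited log2 expression values of 35556 probe sets on 8 arrays, made with Affymetrix Expression Console per the submitters' processing notes; their summarization and normalization steps were not given in the sources used here, and the values themselves showed the scale. Groups and replicate numbers come from the sample titles. Deposited array medians spanned 0.106, so the values were quantile normalized. Only probe sets with 1 gene symbol in the platform annotation were used (21789; 1621 had several and 12146 had no entry). The brightest probe set stood for a gene, which left 19938 genes. Symbols were checked through Entrez identifiers in RefSeq (GRCm38.p6), which held 21698 and changed 0.

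The fit used limma 3.58.1 (R 4.3.3) with eBayes defaults and a mean for each of 4 groups, which left 4 residual and 4.82 prior degrees of freedom. Tests were two-sided; Benjamini-Hochberg adjustment ran over the 19938 genes, with 0.05 as the threshold. The procedure was tested on simulated data in which the changed genes differed by more than any member did between cell types. That test does not show how often differences of the size reported here would be called. Tables and plots were made in Python 3.11.15. P-values measure the spread between pooled preparations, and the number of arrays limits the precision. No pairing of same-numbered arrays was used.

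The members and lists were chosen with earlier results of these data known. Array values are given for each called member and, in each role, for the member with the smallest p in KLS minus MEP and in each genotype comparison; Cdk1 and Ndc80 were added for their function and after their values were seen. From the other lists come the called genes, up to 4 by size, or the gene with the smallest p; Ncapg, the fifth called, is given to complete its count. Results were recomputed with other scalings (median centring, or no further scaling), a filter on the dimmest 30% of genes, gene means over probe sets, other variance models (array weights, a robust fit, a trend with intensity), a block for replicate number, fewer arrays (those of a comparison alone, or all but 1), and an adjusted p under 0.10. Besides Ccnb1, some genes of the other lists were not analysed here. No promoter entry was used for Aurkb, Ccna2, Cdc25c, Foxm1, Incenp, Kif20a, Spc24 and Tpx2, and the first was used for the 4 genes with several.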

Additional observations from a re-analysis of the deposited data

Results flagged for a closer look

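For each of the 47 measured genes, and for the median distance of the genes from their own means, the 4 KLS arrays and the 4 MEP arrays were each searched for a single array far from the other 3, by Dixon's criterion at 95%. Of 96 such groups, 7 met it; chance gives about 1 in 20. WT MEP 1 was the highest MEP array for Mki67 (11.30) and for Ect2 (9.07), and the lowest for Ttk (9.08). WT KLS 1 was the highest KLS array for Incenp (9.10). WT KLS 2 was the lowest KLS array for Kif4 (8.36) and for Kif15 (9.18). TG MEP 1 was the lowest MEP array for Kif2c (7.75).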

How the results depend on the processing

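Between cell types, 46 of the 47 genes were below 0 in KLS minus MEP with the values as deposited, median centring, the dim filter, mean over probe sets, intensity trend, robust variances, array weights and the replicate block. The number called was 1 and became 0 with median centring, 3 without the dimmest 30% of genes, 3 with an intensity trend, 2 with array weights, 4 at an adjusted p under 0.10, and 0 to 1 without single arrays. With the replicate block it was 3 (Bub1, Kif4 and Kif18a) and the count over all genes rose from 319 to 562. That count also rose in the other settings with more members called. It was 435 of 13956 genes without the dimmest 30%, 396 with an intensity trend and 413 with array weights, so the gain was not particular to the members. Deviations of same-numbered arrays correlated above 0.1 in 3 of 6 pairs of groups (0.38, 0.35 and 0.18) and below 0 in the other 3, TG MEP against each other group, down to -0.28, so the numbers were not taken to pair the arrays. Replicate 2 read higher than replicate 1 for 30, 32, 33 and 34 of the 47 genes in WT KLS, TG KLS, WT MEP and TG MEP. The members thus ran the same way in all groups, which the correlations over all genes do not show. Over all genes, the median distance from the own mean on replicates 1 and 2 was 0.041 and -0.0017 in WT KLS and 0.031 and -0.038 in TG KLS. In WT MEP it was -0.041 and 0.035, and in TG MEP -0.023 and 0.0021. The mean of the 12 erythroid and MEP markers also rose from replicate 1 to 2 in every group. It went from 9.39 to 9.60 in WT KLS, 9.24 to 9.45 in TG KLS, 9.93 to 10.01 in WT MEP and 9.73 to 9.79 in TG MEP. The means of the further mitosis genes and of the DNA replication genes rose in the MEP groups and fell in the KLS groups. Why the members ran this way was not tested. The members' median in KLS minus MEP was -0.39 with median centring and -0.32 to -0.25 without single arrays; in WT it was -0.43 as deposited, -0.49 with centring and -0.37 to -0.25 without single arrays; in TG it was -0.32 to -0.22 without single arrays. For TG minus WT in KLS cells it was 0.081 with centring and -0.083 to 0.073 without single arrays; in MEP cells -0.10 as deposited, -0.13 with centring and -0.075 to 0.068; over both -0.036 to 0.029. For the interaction it was 0.18 as deposited, 0.23 with centring and -0.053 to 0.099. No member was called between genotypes, or between cell types within a genotype, under any of these settings. Over all genes, calls in KLS minus MEP were 123 with centring, 780 at an adjusted p under 0.10 and 1 to 738 without single arrays, the extremes without TG MEP 1 and without WT MEP 1. In TG they went from 27 to 1 with centring, 11 with robust variances, 89 with array weights, 111 with the replicate block, 284 on the arrays of TG alone, 74 at 0.10 and 0 to 257 without single arrays. In WT they went from 1 to 8 with the block, 0 on the arrays of WT alone, 5 at 0.10 and up to 59 without WT MEP 1. The cause was not tested.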
